A study of Mus musculus with 28 samples.

Results

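Paneth cells sit at the base of the small-intestinal crypt, and their secreted products were followed here in mouse small-intestinal organoids given single ligands of the Tgfb superfamily. The members were 9 genes taken by name: Lyz1, Mmp7, Ang4, Itln1, Defa17, Defa24, Defa30, Mptx2 and Habp2. Each name had a row in both organoid tables, so the set was 9 of 29413 genes in the table of BMP ligands and 9 of 55416 genes in the table of Tgfb. The rule used names and no measured values, although earlier results of these data were known when the set was named.

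All organoids were wild type (C57BL/6), and the labels give no allele or transgene for any group. The BMP table held untreated organoids (n = 4) and organoids given BMP2 (n = 4), BMP3, BMP4, BMP5 or BMP7 (n = 3 each). Crypts were first grown in ENR medium without BMP or Tgfb, moved to fresh gel after debris was washed off, and then given a recombinant ligand at 500 ng/ml for 24 h. The TGFb table held untreated organoids (n = 3) and organoids given recombinant Tgfb (n = 3), at the same dose and for the same time. ENR medium is the usual organoid medium with EGF, Noggin and R-spondin, and Noggin is itself an antagonist of several BMP ligands. The labels do not say whether the samples of a group came from separate animals or cultures, so p-values measure the spread between these samples only.

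A Paneth cell packs antimicrobial proteins into large granules and empties them into the crypt lumen, and it also supplies signals such as Wnt3 and Notch ligands to the neighbouring stem cells. Alpha-defensins are made as inactive precursors, which in the mouse are cut to the active peptide by the protease matrilysin, the product of Mmp7. In mouse the alpha-defensin genes form a cluster of many recent copies, so short reads often match more than a single gene.

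The coding sequences of the alpha-defensin members are printed first, because how far reads can be told apart sets what each row can show. They are from GENCODE M21 on GRCm38, plus strand, where Defa24 spans chr8:21734494-21735471, Defa17 chr8:21655780-21656735 and Defa30 chr8:21134642-21135598. The submitters' processing notes name GRCm39, so these are reference positions and not those of the authors' files. Capitals mark the bases that differ from Defa24.
Defa24: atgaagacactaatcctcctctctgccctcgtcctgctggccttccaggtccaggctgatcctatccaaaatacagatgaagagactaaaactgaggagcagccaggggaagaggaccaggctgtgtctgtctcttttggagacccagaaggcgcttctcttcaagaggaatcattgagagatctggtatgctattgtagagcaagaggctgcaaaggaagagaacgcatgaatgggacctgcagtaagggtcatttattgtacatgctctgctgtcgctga
Defa17: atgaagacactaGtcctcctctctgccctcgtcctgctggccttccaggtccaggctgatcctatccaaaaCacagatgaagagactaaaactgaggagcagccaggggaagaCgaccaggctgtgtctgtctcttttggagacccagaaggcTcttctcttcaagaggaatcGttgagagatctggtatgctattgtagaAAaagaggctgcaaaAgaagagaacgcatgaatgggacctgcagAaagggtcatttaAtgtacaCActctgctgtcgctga
Defa30: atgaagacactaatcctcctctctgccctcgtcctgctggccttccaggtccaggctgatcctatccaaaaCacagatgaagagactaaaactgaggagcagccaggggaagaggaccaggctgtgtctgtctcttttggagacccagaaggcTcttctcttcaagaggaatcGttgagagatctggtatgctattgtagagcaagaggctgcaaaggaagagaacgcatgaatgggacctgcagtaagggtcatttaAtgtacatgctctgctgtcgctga

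Each coding sequence is 282 bases long. Defa30 differs from Defa24 at 4 bases and is 98.6% identical to it, and Defa17 differs from Defa24 at 12 bases. The coding sequence of Defa3, which is not a member, is 100% identical to the Defa17 sequence printed above. In windows of 75 bases, the read length, 91.3% of the Defa17 transcript also occurred in another annotated gene, and 295 of its 323 windows occurred in Defa3. For Defa30 the share was 20.7% and for Defa24 it was 6.67%, so most windows of the Defa24 transcript were its own. Lyz1 shared 6.22% of its windows, with Lyz2, the macrophage lysozyme. Ang4 shared 0.787%, with Ang5, and Mptx2 10.1%, with Mptx1. Mmp7, Itln1 and Habp2 shared 0%.

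Sequencing depth in the BMP table, recovered from the steps of its values, was 21358620 to 24784834 reads, each standing for 0.826 to 1.28 normalized counts. The TGFb table is in TPM, which keeps no depth, so depth is unknown there and levels were not set across the tables. All 9 members had a mean of at least 10 over all samples of both tables and were tested. Habp2 passed in the TGFb table only through the Tgfb samples, as its control mean there was 9.994 TPM. Of 8 markers of non-epithelial cells, Pecam1 was the most abundant in the BMP table, where the list summed to 608.9 to 810.9 normalized counts in controls, 879.8 to 1087 with BMP2 and 914.8 to 1052 with BMP4. In the TGFb table it summed to 1.261 to 1.552 TPM in controls and 3.05 to 3.983 TPM with Tgfb, with Cd68 the most abundant and Adgre1 and Col1a2 listed at 0. Their part in the results was not tested. The deposited values summed to 19250832 to 20518942 normalized counts in controls, 26268636 to 29004576 with BMP2 and 25574455 to 26979289 with BMP4. When all samples were brought to an equal total, the median log2 change of all genes was -0.49 for BMP2, -0.35 for BMP4 and -0.12 for BMP7, against -0.03, 0.04 and -0.05 as deposited. That rescaling lowered the part of the called genes lying above control from 48.9% to 31.5% with BMP2, from 51.7% to 30.9% with BMP4 and from 59.4% to 48.5% with BMP7. With BMP5 that share went from 62.5% to 49.8% after quantile normalization.

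In untreated organoids the 9 products spanned a wide range of levels. Per length, on the TPM scale of the TGFb table, the order ran from Defa24 at 9630 ± 1086 TPM through Lyz1 at 2168 ± 281, Defa30 at 1811 ± 304.1, Defa17 at 1756 ± 164.7 and Itln1 at 1149 ± 113.3 TPM (SD, n = 3 each). Ang4 followed at 437.7 ± 67.9, Mmp7 at 250.9 ± 25.17, Mptx2 at 111 ± 17.46 and Habp2 at 9.994 ± 1.557 TPM (SD, n = 3 each). Across untreated samples the ranges of Lyz1 (1931 to 2478 TPM), Defa30 (1518 to 2125) and Defa17 (1660 to 1946) overlapped. Within each untreated sample Lyz1 was above Defa30 and Defa17, and Habp2 was the lowest by a wide margin. The place of Defa17 in this order rests on how reads were divided with Defa3, which stood at 6999 ± 775.3 TPM (SD, n = 3).

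BMP2 lowered 8 of the 9 products against untreated organoids. Mptx2, a mucosal pentraxin, fell 6.25-fold, Defa17 5.66-fold, Ang4 4.84-fold and Habp2 3.65-fold, while Mmp7, Lyz1 and Itln1 fell by about 2-fold and Defa24 1.52-fold. Defa30 was the single product that did not pass the test. By limma with Benjamini-Hochberg adjustment over 14746 genes, 38.4% of all genes tested were lower with BMP2 and 36.8% were higher. The median log2 change of the members was -1.19, beside -0.03 for all genes. In bulk samples, fewer Paneth cells and less RNA per Paneth cell cannot be told apart.

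Among the enzymes and lectins of the granules, Lyz1 encodes the lysozyme that cuts bacterial cell walls. Lyz1 was at 57600, 47800, 47000 and 45000 normalized counts in control replicates II, III, IV and VI, and at 42000, 21800, 15400 and 22000 with BMP2 in the same order of numbers. All 4 BMP2 samples lay below all 4 controls, and replicate II lay closest to them. The log2 change was -1.06 (SE 0.253, limma adjusted p = 0.000961), and the sum of Lyz1 and Lyz2 gave -1.06 as well, Lyz2 being at 46.2 normalized counts or less in control and BMP2 samples. Itln1, an intelectin that binds microbial sugars and is made by goblet cells too, went from 16375 ± 1721 to 8778 ± 4048 normalized counts (SD, n = 4 each; log2 change -1.01, SE 0.248, limma adjusted p = 0.00118). Again replicate II, at 14200, stood just under the lowest control at 14800.

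Ang4, an antimicrobial ribonuclease of the angiogenin family, was at 3880, 2810, 2280 and 2650 normalized counts in controls and at 1110, 407, 354 and 744 with BMP2. The groups did not overlap, and the log2 change was -2.28 (SE 0.334, limma adjusted p = 5.38e-06). Summed over the angiogenin family the change was -2.13 (SE 0.293, adjusted p = 2.44e-06). Mptx2 was at 1030, 849, 694 and 923 normalized counts in controls and at 225, 89.5, 76.5 and 232 with BMP2, which gave the largest fall of the 9 (log2 change -2.64, SE 0.323, limma adjusted p = 5.33e-07). The 4 BMP2 samples held 8.75 to 26.5% of the control mean.

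The proteases fell as well. Mmp7 was at 4270, 3630, 3350 and 4080 normalized counts in controls and at 2580, 1210, 1150 and 2150 with BMP2 (log2 change -1.19, SE 0.212, limma adjusted p = 5.13e-05). Habp2, a hyaluronan-binding serine protease best known from blood plasma, was at 381, 341, 394 and 370 in controls and at 90.8, 129, 65.9 and 135 with BMP2. Neither protease had a BMP2 sample within the control range, and Habp2 fell by 1.87 on the log2 scale (SE 0.214, limma adjusted p = 2.21e-07).

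The 3 alpha-defensins, near-identical in coding sequence, did not fall alike. Defa17 was at 26500, 20200, 23900 and 21100 normalized counts in controls and at 7170, 2830, 2540 and 5100 with BMP2, a log2 change of -2.50 (SE 0.28, limma adjusted p = 1.61e-07). Defa24 was at 31100, 24600, 27200 and 24800 in controls and at 30800, 14600, 12500 and 17400 with BMP2, so that replicate II stayed at the level of its control while the others were lower. Its log2 change of -0.60 (SE 0.233, limma adjusted p = 0.0264) was lost without control replicate II (-0.53, adjusted p = 0.0708), without BMP2 replicate III (-0.51, 0.08) and without BMP2 replicate IV (-0.43, 0.107).

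Defa30 was at 5790, 4400, 5030 and 5710 normalized counts in controls and at 7280, 3550, 3400 and 5690 with BMP2. The groups overlapped, with replicate II above and replicates III and IV below the control range. The log2 change was -0.14 with a 95% interval from -0.54 to 0.26 (limma adjusted p = 0.528), and that interval lies apart from the one of Defa17, -3.09 to -1.91. With totals made equal, or after quantile normalization, Defa30 was lower with BMP2 too, and all 9 products were then called lower, where 53% and 37.6% of all genes were.

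As shares of all Defa rows of a sample, Defa17 went from 28.5 ± 0.821% in controls to 12.4 ± 1.42% with BMP2, Defa24 from 33.5 ± 0.839% to 54.5 ± 4.26% and Defa30 from 6.52 ± 0.636% to 14.6 ± 1.14% (SD, n = 4 each). None of these shares overlapped between the groups. The exact permutation test, two-sided, gave p = 0.0286 for each, the smallest value that 4 against 4 samples allow, and 0.147 after adjustment over the 18 shares compared. The Defa24 share was also above all controls with BMP4 (38.5 ± 1.15%), BMP5 (36.9 ± 1.72%) and BMP7 (37.1 ± 0.958%; SD, n = 3 each). With Tgfb it was above its own controls, at 42.1 ± 0.593% against 32.6 ± 0.592% (SD, n = 3 each). The Defa30 share lay above all controls with BMP4 (8.87 ± 1.48%) and with Tgfb (8.2 ± 0.74% against 6.1 ± 0.538%). Defa17 shares with BMP4, BMP5, BMP7 and Tgfb overlapped those of their controls.

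All 4 BMP2 samples lay below all 4 controls for 7 products, and for 34.4% of all genes tested.

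**Figure D1:**
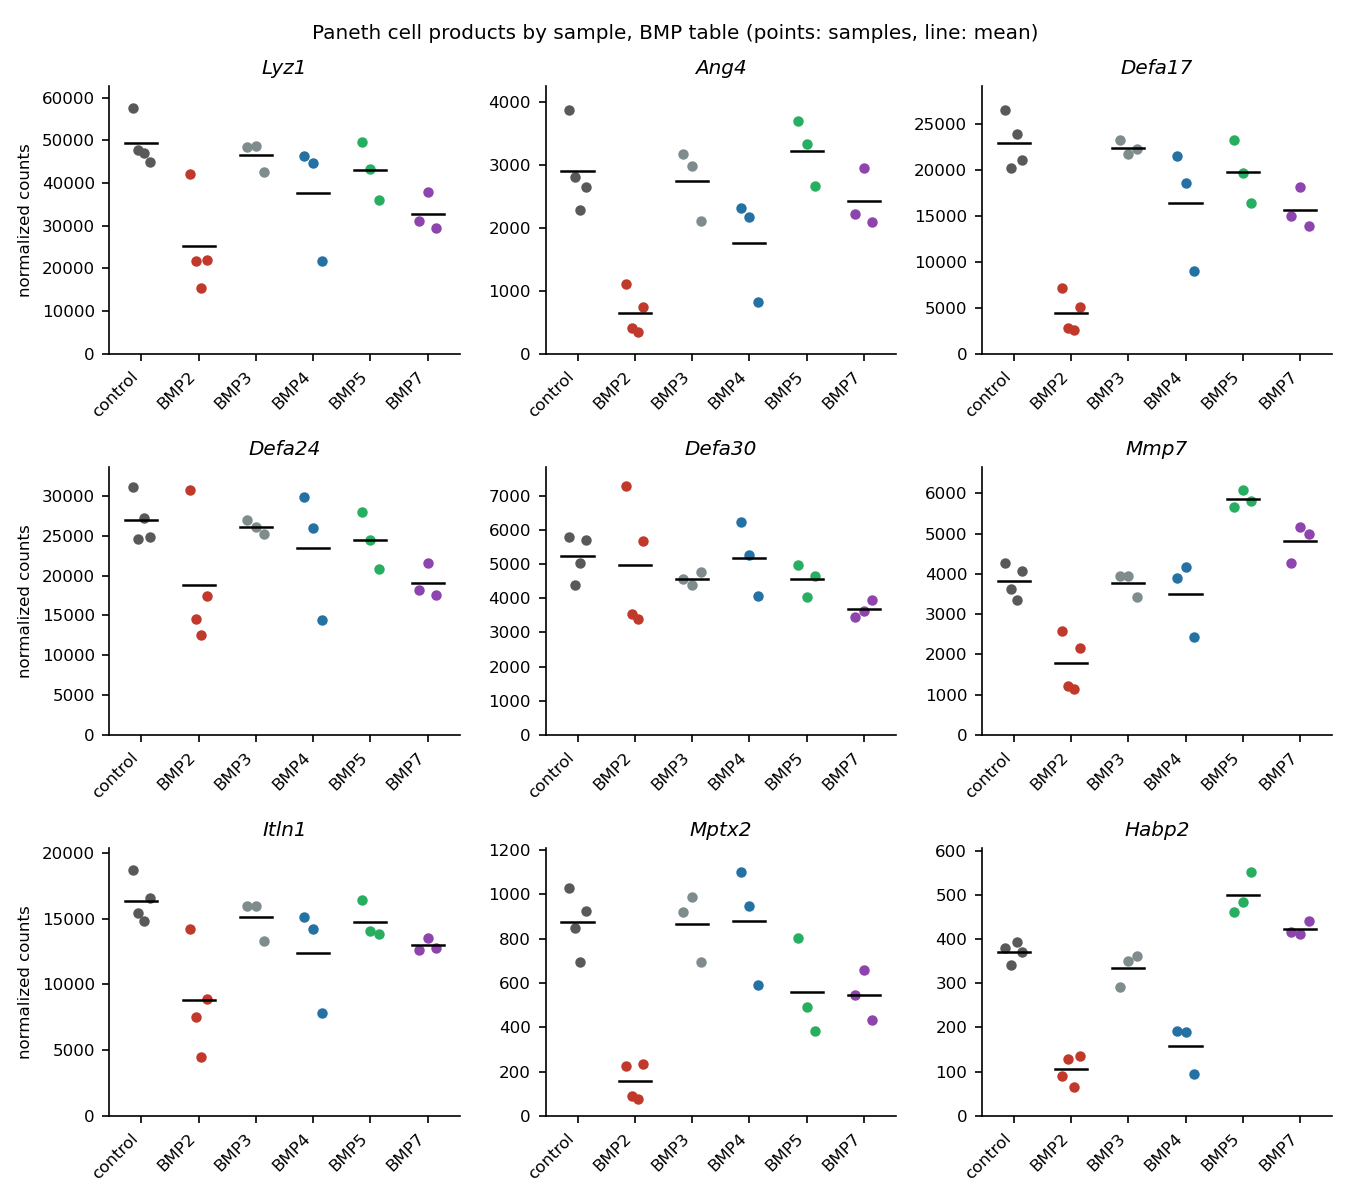
Normalized counts (y axis, linear from 0) of the 9 Paneth cell products in each sample of the BMP table, by group (x axis); points are samples and the line is the group mean. All BMP2 samples lie below all controls for 7 products, Defa24 and Defa30 overlap, and the lowest BMP4 point of each panel is replicate VI.

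Without BMP2 replicate II, which was the highest BMP2 sample for 7 of the 9 products, the falls were larger for each product except Habp2: Lyz1 was at -1.335, Defa17 at -2.78 and Defa24 at -0.87 on the log2 scale. BMP2 replicate IV was the lowest for all 9.

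BMP4, a close relative of BMP2, lowered 1 of the 9 products, Habp2, where 31.4% of all genes tested were lower and 33.7% higher. Habp2 was at 191, 189 and 94.5 normalized counts in replicates II, III and VI, all below the control range of 341 to 394 (log2 change -1.295, SE 0.231, limma adjusted p = 7.37e-05). For the other 8 the groups overlapped, and changes ran from -0.83 for Ang4 (adjusted p = 0.0519) to -0.02 for Defa30 and for Mptx2 (95% interval -0.76 to 0.71). How many of all genes lay below all controls with BMP4 was not counted. Mptx2, the product that fell most with BMP2, was at 1100, 946 and 591 normalized counts with BMP4, on both sides of the control range.

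BMP4 replicate VI was the lowest BMP4 sample for all 9 products. Lyz1 was at 46300 and 44600 normalized counts in replicates II and III and at 21700 in VI, and Defa17 was at 21500, 18500 and 9010. Without VI the log2 change of Lyz1 was -0.11 in place of -0.47, that of Defa17 -0.19 in place of -0.575, and that of Habp2 -0.96 (limma adjusted p = 0.000595). The number of products called lower was 2 without control replicate IV or without BMP4 replicate III (Ang4 and Habp2 in each case) and 3 without BMP4 replicate II (Defa17 in addition).

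Same-numbered samples of the BMP3, BMP4, BMP5 and BMP7 groups and of the controls deviated together, so the fit with the replicate number as a block is given beside these results. For BMP4 the blocked fit called 5 products lower, where 35% of all genes were: Habp2, Ang4 (-0.98, adjusted p = 0.0067), Itln1 (-0.59, 0.0237), Lyz1 (-0.55, 0.0294) and Defa17 (-0.64, 0.0493). With the same total 7 products were lower with BMP4, where 46.7% of all genes were, and after quantile normalization 8 were, where 33.4% of all genes were.

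BMP3, often described as an antagonist of other BMP ligands, changed 0 of the 9 products by limma, where 0% of all genes tested were called. Log2 changes lay between -0.18 for Defa30 and -0.015 for Mptx2, 0 of the 9 had an unadjusted p under 0.05, and edgeR and DESeq2 on the recovered reads called 0 as well. Over all genes 110 had an unadjusted p under 0.05, edgeR called 0 and DESeq2 1. The intervals were not narrow: for Lyz1 the 95% interval ran from -0.65 to 0.50.

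BMP5 changed 0 of the 9 products by limma, with 9.87% of all genes lower and 16.5% higher. Mmp7 alone had an unadjusted p under 0.05. It was at 5670, 6090 and 5820 normalized counts, all above the highest control at 4270 (log2 change 0.62, SE 0.23, limma adjusted p = 0.0545). DESeq2 called it higher and edgeR called 0 products, where they called 4650 and 4199 of 14746 genes. Habp2 was also above all controls, at 461, 485 and 553, with a log2 change of 0.42 (limma adjusted p = 0.193). How many of all genes lay above all controls with BMP5 was not counted. Mptx2, at 802, 493 and 384, had a log2 change of -0.70 (limma adjusted p = 0.156) and was called lower in the fit with the replicate block (-0.86, adjusted p = 0.0305), which called 1 product and 17.6% of all genes lower.

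BMP7 changed 0 of the 9 products by limma as well, with 13.2% of all genes lower and 19.2% higher. All 3 samples lay below all 4 controls for Lyz1, Defa17, Defa24, Defa30, Itln1 and Mptx2, as they did for 20.8% of all genes tested, and above them for Mmp7 and Habp2, as for 21.6% of all genes. Lyz1 was at 31000, 37900 and 29400 normalized counts (log2 change -0.59, SE 0.273, limma adjusted p = 0.106), and Defa30 at 3440, 3620 and 3960 (-0.50, SE 0.206, adjusted p = 0.0696). These were the 2 members with an unadjusted p under 0.05, edgeR called 0 and DESeq2 called Defa30 lower. Over all genes edgeR called 5039 and DESeq2 5503. With the replicate block 4 products were lower, where 21.3% of all genes were: Lyz1 (-0.675, adjusted p = 0.0172), Defa30 (-0.56, 0.0221), Mptx2 (-0.85, 0.0282) and Defa24 (-0.55, 0.0435). In a fit of the BMP7 and control samples alone, 6 were lower and Mmp7 was higher, where 17.1% of all genes were lower and 18.8% higher.

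**Figure D2:**
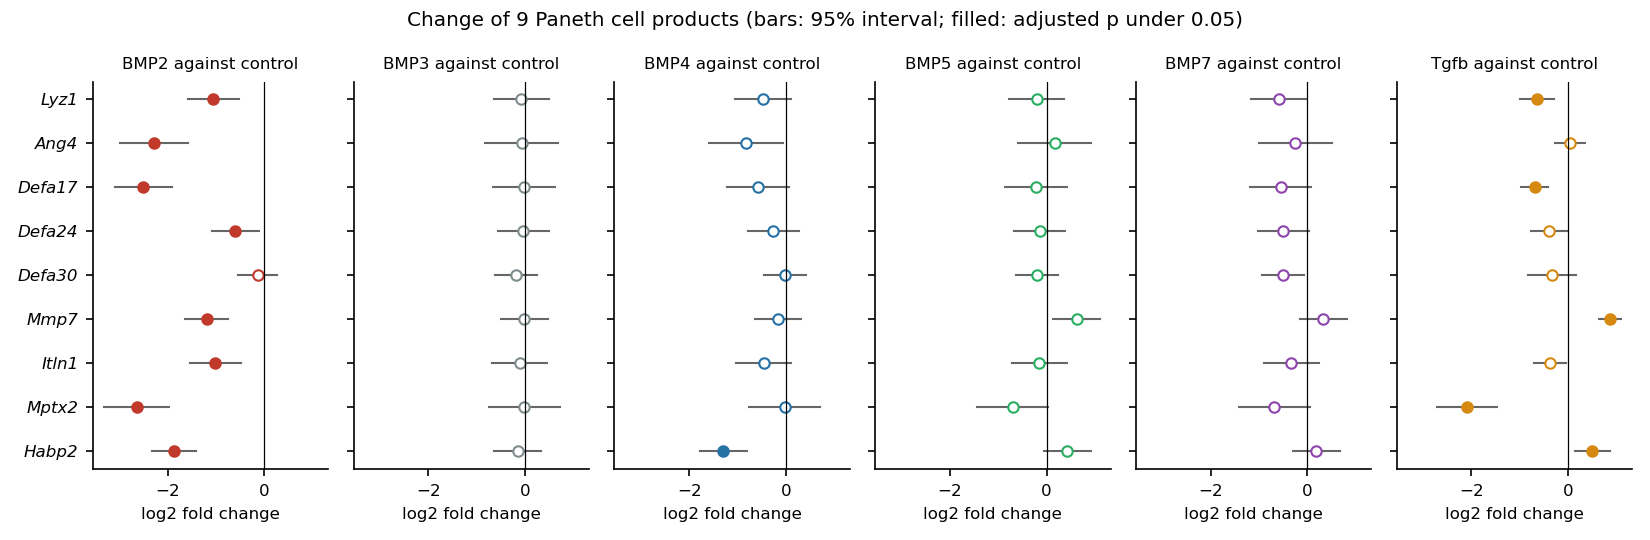
Log2 fold change against untreated organoids of the same table (x axis) for the 9 products (y axis), 1 panel per ligand; points are limma estimates, bars are 95% intervals, and filled points have an adjusted p under 0.05. With BMP2 8 points are filled on the left of 0, with BMP3 each interval holds 0, and with Tgfb Mmp7 and Habp2 are filled on the right while Mptx2, Defa17 and Lyz1 are filled on the left.

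The 5 BMP ligands were given at the same dose and time, so they were compared with each other for each product. The moderated F-test among the ligands called 7 of 9 products, beside 84.1% of all genes, and left out Defa24 (limma adjusted p = 0.209) and Defa30 (0.319). Of the 90 combinations of a product and a ligand pair, 30 differed, with p-values adjusted over all genes within a pair.

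BMP2 stood below BMP3 for 7 products, where 5547 of 14746 genes were lower with BMP2 and 5288 higher. It stood below BMP4 for 5 (4923 genes lower and 4924 higher), below BMP5 for 7 (4832 and 4749) and below BMP7 for 6 (4625 and 4637). In either direction 73.5%, 66.8%, 65% and 62.8% of all genes differed, in that order. BMP4 stood below BMP3 for 1 product (4587 genes lower with BMP4 and 4790 higher), below BMP5 for 3 (4668 and 4195) and below BMP7 for 1 (4628 and 4190). In either direction 63.6%, 60.1% and 59.8% of genes differed. The pairs BMP3 and BMP5 (23.7% of genes), BMP3 and BMP7 (29.5%) and BMP5 and BMP7 (0.0136%) had 0 by limma. Of these, BMP3 and BMP5 had 2 products with an unadjusted p under 0.05, 0 by edgeR and 2 by DESeq2, and BMP3 and BMP7 and BMP5 and BMP7 had 0 by each.

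The products that separated BMP2 from BMP4 were Mptx2 (log2 difference -2.62, SE 0.349, limma adjusted p = 2.4e-06), Defa17 (-1.93, SE 0.302, 1.66e-05), Ang4 (-1.45, SE 0.36, 0.00166), Mmp7 (-1.03, SE 0.23, 0.000644) and Habp2 (-0.57, SE 0.231, 0.0364). For Lyz1 the difference was -0.59, with a 95% interval from -1.16 to -0.02 and a limma adjusted p of 0.0652. Between BMP5 and BMP7 the difference was 0.29 for Mmp7 (95% interval -0.23 to 0.80) and -0.01 for Mptx2 (-0.80 to 0.77), and these intervals leave room for differences of more than 1.5-fold.

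Habp2 and Mmp7 ranked the groups differently from the other products. Habp2 stood at 499.7 ± 47.72 normalized counts with BMP5, 422.7 ± 15.31 with BMP7, 371.5 ± 22.58 in controls, 335 ± 37.64 with BMP3, 158.2 ± 55.15 with BMP4 and 105.2 ± 32.69 with BMP2 (SD). The steps from BMP3 to BMP4 (limma adjusted p = 0.000517) and from BMP4 to BMP2 (0.0364) passed the test. The other steps did not, although all BMP5 samples lay above all BMP7 samples and these above all controls. For Mmp7 the order was the same and the step from BMP4 to BMP2 alone passed, at an adjusted p of 0.000644. For Defa17 and Mptx2 the step that passed was the one from BMP7 to BMP2, for Ang4 that from BMP4 to BMP2, and for Lyz1, Itln1, Defa24 and Defa30 no step between neighbours did.

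Tgfb lowered 3 products and raised 2, where 32.9% of all 7880 genes tested were lower and 31.4% were higher. Mptx2 fell 4.26-fold, Defa17 1.61-fold and Lyz1 1.56-fold, whereas Mmp7 rose 1.82-fold and Habp2 1.42-fold. Mmp7 and Habp2, the proteases, were thus higher with Tgfb and lower with BMP2, in tables with separate controls. The difference between these responses was not tested, because the tables were scaled separately.

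Mmp7 was at 221.9, 267.9 and 262.7 TPM in control replicates I, II and III and at 463.8, 450.9 and 449.2 TPM with Tgfb (log2 change 0.86, SE 0.095, limma adjusted p = 0.000205). The 3 treated samples lay close together and all above the controls. Habp2 was at 10.07, 11.51 and 8.398 TPM in controls and at 17.22, 13.36 and 13.21 TPM with Tgfb, also without overlap (0.50, SE 0.152, adjusted p = 0.0224). This call was lost without control replicate I (0.515, adjusted p = 0.0528), without control replicate III (0.40, 0.0644), without Tgfb replicate I (0.39, 0.0679) and with no filter on low values (0.0555). The control mean of Habp2, 9.994 TPM, was under the filter of 10, so Habp2 was tested only because the Tgfb samples were higher.

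Mptx2 was at 109.1, 129.3 and 94.55 TPM in controls and at 29.49, 33.38 and 15.95 TPM with Tgfb (log2 change -2.09, SE 0.264, limma adjusted p = 0.000404). Lyz1 was at 1931, 2478 and 2094 TPM and at 1471, 1534 and 1159 TPM (-0.65, SE 0.149, adjusted p = 0.00721). Both had all treated samples below all controls. Tgfb replicate III was the lowest treated sample for all 9 products, and control replicate II the highest control for all 9.

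Ang4, which fell strongly with BMP2, was at 362.9, 495.4 and 454.8 TPM in controls and at 471.2, 454 and 414.3 TPM with Tgfb. The groups overlapped and the log2 change was 0.04, with a 95% interval from -0.27 to 0.345 (limma adjusted p = 0.81). Defa24 had a change of -0.39 (adjusted p = 0.0695), Itln1 -0.37 (0.0513) and Defa30 -0.33 (0.203), and for Defa24 and Itln1 the treated samples lay below the controls. All Tgfb samples lay below all controls for 5 products and for 35.3% of all genes tested, and above them for 2 products and for 34.4% of all genes.

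**Figure D3:**
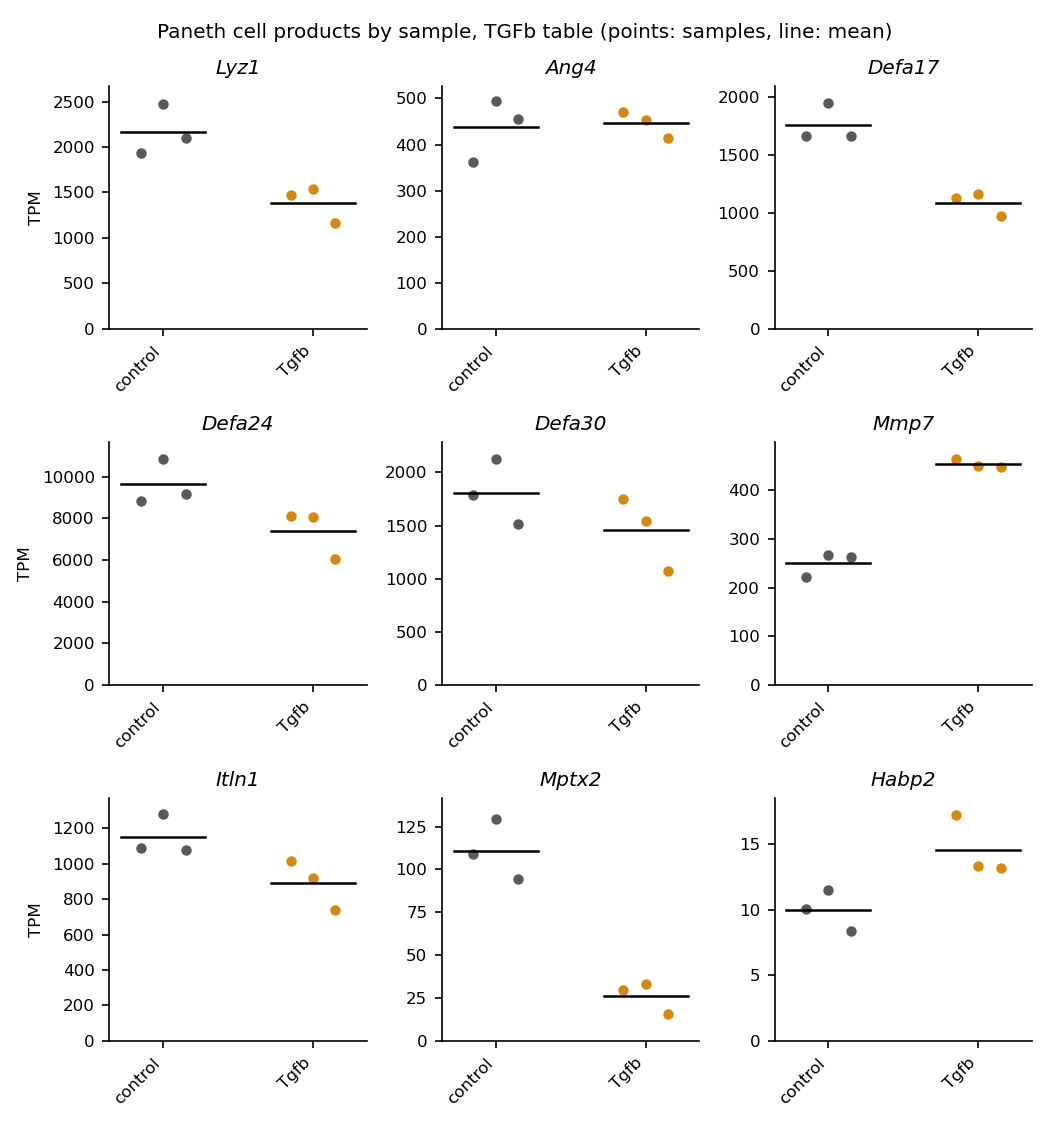
TPM (y axis, linear from 0) of the 9 products in untreated and Tgfb-treated organoids (x axis, n = 3 each); points are samples and the line is the group mean. Mmp7 and Habp2 lie higher with Tgfb in all samples, and Mptx2, Defa17, Lyz1, Defa24 and Itln1 lie lower.

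The rows of near-identical alpha-defensins were divided differently in the BMP and TGFb tables. In the BMP table Defa17 held 95.3 to 96.54% of the summed level of Defa17 and Defa3 in controls, whereas in the TGFb table it held 19.8 to 20.53%. The same was seen for Defa31 and Defa23, whose coding sequences are 100% identical. Defa31 was at 5550 ± 766 normalized counts in BMP controls (SD, n = 4) and listed at 0 in all 6 samples of the TGFb table, where Defa23 stood at 2039 ± 351.6 TPM (SD, n = 3). Defa37 and Defa36, also 100% identical, did likewise: Defa37 was at 3652 ± 729.6 normalized counts in BMP controls (SD, n = 4), Defa36 at 1375 ± 160.7 TPM in TGFb controls (SD, n = 3). Why the tables divide the copies differently was not tested.

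Within the BMP table the division also moved with treatment: Defa3 was at 780 to 1040 normalized counts in controls and at 0 to 119 with BMP2, where Defa17 held 98.37 to 100% of the pair. Defa17 held 99.11 to 99.23% with BMP4 and 97.28 to 98.24% with BMP7. Defa32 and Defa33, whose transcripts are 99.06% identical, switched between samples, so that in control and BMP2 samples the share of Defa32 in the pair ran from 0 to 100%. In normalized counts, a sum over copies does not depend on how reads are divided between those copies. Reads shared with genes outside the sum can still move it, and in TPM the unequal lengths of copies can too. The sum of Defa17 and Defa3, taken after the values were seen, went from 23832 ± 2883 to 4451 ± 2220 normalized counts with BMP2 (SD, n = 4 each; log2 change -2.55, SE 0.282, limma adjusted p = 1.39e-07), close to Defa17 alone. With Tgfb it went from 8755 ± 938.1 to 5233 ± 789.5 TPM (SD, n = 3 each; -0.75, SE 0.154, adjusted p = 0.00438), against -0.69 (0.00167) for Defa17 alone. The call of this sum with Tgfb was lost with no filter on low values (adjusted p = 0.159).

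**Figure D4:**
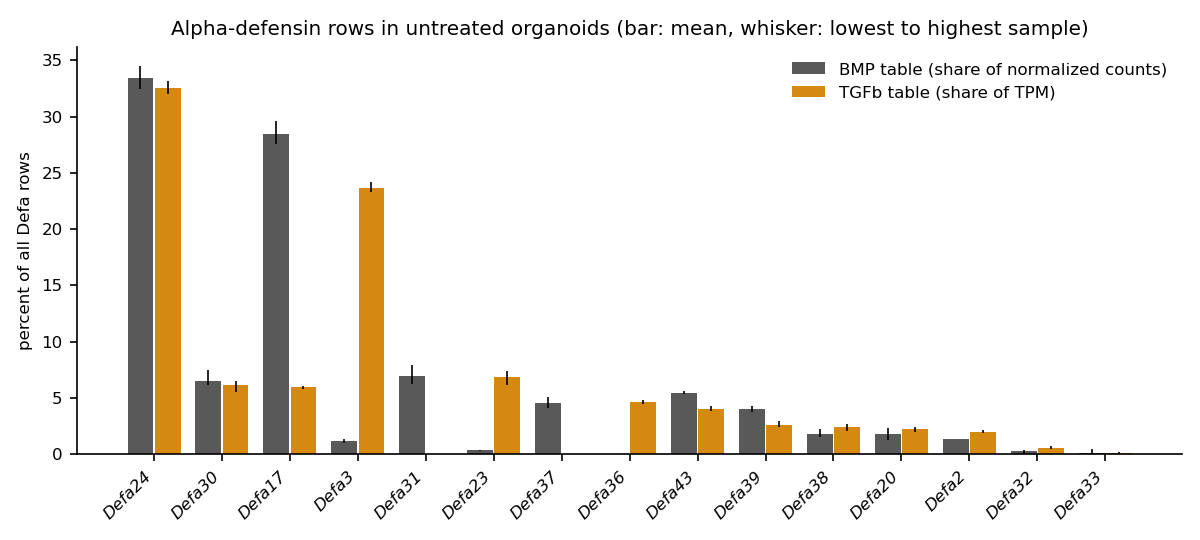
Share of the summed level of all Defa rows (y axis, percent) held by 15 of these rows (x axis) in untreated organoids of the BMP table (n = 4, gray) and the TGFb table (n = 3, orange); bars are means and whiskers run from the lowest to the highest sample. Defa24 and Defa30 hold like shares in both, whereas Defa17 and Defa3, Defa31 and Defa23, and Defa37 and Defa36 trade places.

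All rows whose name starts with Defa, 34 in the BMP table and 45 in the TGFb table, were then summed. The sum was 71359 to 93321 in controls, with a mean of 80473 ± 9391 normalized counts (SD, n = 4), and 34671 ± 14846 with BMP2 (SD, n = 4). All BMP2 samples were lower, at 28 to 68.5% of the control mean, and the log2 change was -1.30 (SE 0.239, limma adjusted p = 7.22e-05). With BMP4 the change was -0.46 (0.126), with BMP5 -0.28 (0.458), with BMP7 -0.64 (0.064) and with BMP3 -0.06 (1), where the parentheses hold limma adjusted p-values. With the replicate block the sum was lower with BMP4 (-0.52, adjusted p = 0.0434) and with BMP7 (-0.70, 0.0161). With Tgfb it went from 29588 ± 3387 to 17593 ± 2863 TPM (SD, n = 3 each; -0.76, SE 0.173, adjusted p = 0.00693), a call that was lost with no filter on low values (adjusted p = 0.578).

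Besides the 3 members, 21 Defa rows of the BMP table were tested, and with BMP2 19 of them fell and 0 rose, at a median log2 change of -2.10. With BMP4 12 were lower, with BMP7 14, with BMP5 2 (Defa21 and Defa22) and with BMP3 0, and with each of these ligands 0 were higher. Rows that exchange reads are not independent, so these counts overstate the number of separate genes. The 3 of highest mean were Defa31, Defa43 and Defa37, and with BMP2 they were at 1060 ± 578.4, 720.5 ± 333.2 and 1568 ± 702.4 normalized counts (SD, n = 4 each), against 5550 ± 766, 4368 ± 455.4 and 3652 ± 729.6 in controls. With Tgfb 20 of the 22 rows tested were lower. The 3 of highest mean there were Defa3, Defa23 and Defa36, which stood at 4144 ± 688, 784.3 ± 193.2 and 718.9 ± 105.1 TPM with Tgfb against 6999 ± 775.3, 2039 ± 351.6 and 1375 ± 160.7 TPM in controls (SD, n = 3 each). With BMP2 these 21 rows ran from -6.50 to -0.56, so that Defa30 lay outside their range and Defa24 near its upper end.

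**Figure D5:**
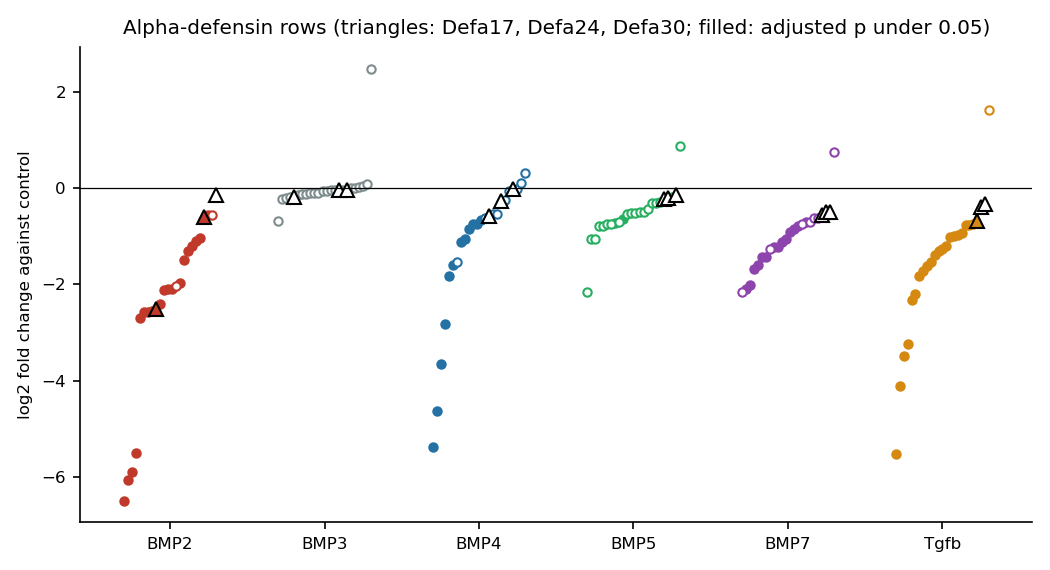
Log2 fold change against untreated organoids of the same table (y axis) for each alpha-defensin row tested, sorted within each ligand (x axis); triangles are Defa17, Defa24 and Defa30, circles are other rows, and filled symbols have an adjusted p under 0.05. With BMP2 and Tgfb most circles are filled and below 0, and Defa24 and Defa30 lie near the right end of each row of symbols except that of BMP3. With BMP3 Defa30 is at -0.18, below the median of the circles at -0.065, and the highest circle is at 2.49.

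Transcription factors and receptors that set up the Paneth cell were taken as a list of 12. Of these regulators, 4 were higher and 6 lower with BMP2, 2 and 7 with BMP4, 3 and 2 with BMP5, 3 and 3 with BMP7 and 0 with BMP3. Of all genes tested 36.8% were higher and 38.4% lower with BMP2, and 33.7% and 31.4% with BMP4. The shares were 16.5% and 9.87% with BMP5, 19.2% and 13.2% with BMP7 and 31.4% and 32.9% with Tgfb. Whether the list differs from all genes was not tested. The same shares stand beside the counts of other Defa rows above and of the lists that follow. Among those of smallest p, Creb3l1, a transcription factor of secretory cells, went from 703.8 ± 79.68 in controls (SD, n = 4) to 81.58 ± 12.77 normalized counts with BMP2 (SD, n = 4) and to 281.7 ± 16.26 with BMP4 (SD, n = 3). Gfi1, a factor of the secretory lineage, was at 72.25 ± 8.587 in controls and 8.192 ± 3.462 with BMP2, and Bhlha15, which builds secretory capacity, at 446.5 ± 69.88 and 24.47 ± 20.92 (SD, n = 4 each). The log2 changes with BMP2 were -3.10, -3.06 and -4.52, and the highest of their limma adjusted p-values was 1.03e-08.

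Ephb3, the receptor that keeps Paneth cells at the crypt base, went in opposite directions with the ligands. It was at 1272 ± 110 normalized counts in controls, 4435 ± 356.3 with BMP2 (SD, n = 4 each; log2 change 1.80, limma adjusted p = 9.7e-12) and 400.7 ± 26.63 with BMP4 (SD, n = 3; -1.66, adjusted p = 3.97e-10). Ephb2 fell with BMP4 (-1.27, adjusted p = 6.18e-08) and Tcf7l2, a nuclear effector of Wnt, rose (0.91, 2.31e-07). With Tgfb 4 of 7 tested regulators were higher, among them Ephb3 (1.16, limma adjusted p = 8.22e-05) and Ephb2 (0.63, 0.00023). The 2 that were lower were Creb3l1 (-1.37, limma adjusted p = 3.29e-05) and the Wnt receptor Fzd5 (-0.75, 0.000219). The other regulators of the list fell under the filter on low values in the TGFb table and were not tested. In mean TPM (n = 3 each), Atoh1 went from 6.798 to 1.758, Bhlha15 from 6.822 to 1.465 and Gfi1 from 1.312 to 0.3163. For each of these genes all Tgfb samples lay below all controls. Spdef went from 7.959 to 6.084 TPM with overlap, and Nod2 rose from 0.3031 to 0.9624 TPM without overlap.

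Of the niche signals, 5 of 6 were tested in the BMP table. With BMP2 1 was higher and 3 were lower, and with BMP4 1 and 4. Wnt3, the Wnt ligand of Paneth cells, went from 209.2 ± 17.19 in controls (SD, n = 4) to 43.65 ± 9.617 with BMP2 (SD, n = 4) and 58.17 ± 6.093 normalized counts with BMP4 (SD, n = 3), with limma adjusted p-values of 5.4e-11 and 8.91e-09. Dll1, a Notch ligand, and Egf fell with both ligands as well, by 2.57 and 2.89 with BMP2 and by 0.99 and 1.53 with BMP4 on the log2 scale (limma, highest adjusted p = 0.0163). Egf was low, at 22.35 ± 5.976 in controls, 2.663 ± 1.988 with BMP2 (SD, n = 4 each) and 7.85 ± 5.5 normalized counts with BMP4 (SD, n = 3). The size of its fall thus rests on few reads. Tgfa, a ligand of the EGF receptor, rose with BMP2 (2.21, adjusted p = 3.24e-11), with BMP4 (1.125, 1.61e-06) and with Tgfb (1.515, 1.02e-05). With Tgfb 2 were tested, and Dll1 fell (-1.52, adjusted p = 1.1e-05). With BMP5 and with BMP7 1 was higher and 1 lower, and with BMP3 0 changed.

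Among 18 other products listed for Paneth cells, 14 were tested in the BMP table. With BMP2 10 fell and 3 rose, and the numbers lower and higher were 5 and 3 with BMP4, 4 and 2 with BMP5, 7 and 2 with BMP7 and 0 with BMP3. Slc30a2, a zinc transporter of the granules, went from 408 ± 92.35 to 6.06 ± 3.586 normalized counts with BMP2, and Reg3g, an antibacterial lectin that enterocytes also make, from 2520 ± 1166 to 57 ± 34.19 (SD, n = 4 each; log2 changes -5.985 and -5.55, limma adjusted p = 6.36e-12 and 1.61e-09). Gpx3, a secreted glutathione peroxidase, and Nupr1, a stress-response gene, rose with BMP2, by 3.90 and 3.215 on the log2 scale (limma adjusted p = 2.4e-11 and 1.42e-09). With BMP4 Cd24a, a surface marker of Paneth and other crypt cells (-1.59, adjusted p = 2.5e-07), Rnase1 (-2.15, 1.37e-06) and Reg3g (-2.35, 0.000294) fell and Gpx3 rose (1.84, 3.04e-06). With Tgfb 9 of 11 were lower, among them Reg3g (-2.48, adjusted p = 2.59e-05), Agr2 (-2.19, 4.2e-06) and Pla2g2a (-1.73, 1.22e-05), and Nupr1 was higher (2.46, 4.1e-06). Agr2, Tff3 and Guca2a of this list are made by goblet cells too.

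Markers of other cell types moved in the same samples. Of 6 stem cell markers all 6 were lower with BMP2, BMP4 and Tgfb, 3 with BMP7 and 1 with BMP5, and their summed level was 136023 to 163295 normalized counts in controls, 10048 to 20265 with BMP2 and 6609 to 8802 with BMP4. Of 6 proliferation markers all 6 were lower with BMP2, BMP4 and Tgfb and 0 with BMP5 and BMP7. The 8 goblet markers summed to 23331 to 39414 in controls, 29687 to 66785 with BMP2 and 86542 to 143159 with BMP4, and 6 enterocyte markers to 46374 to 83822, 26470 to 66742 and 286110 to 372340. Of 7 goblet markers tested, 3 were higher and 3 lower with BMP2 and 4 and 2 with BMP4, and of 6 tested with Tgfb 5 were lower. Of 6 enterocyte markers 1 was higher and 4 lower with BMP2 and 5 and 0 with BMP4, and of 5 tested with Tgfb 2 were higher and 3 lower. Between BMP2 and BMP4 all 6 stem cell markers differed, 4 lower and 2 higher with BMP2. Of 6 tuft markers 5 were higher with BMP2 and 4 were higher and 1 lower with BMP4, and they summed to 406.7 to 479.2 normalized counts in controls, 1598 to 2394 with BMP2 and 890.2 to 923.2 with BMP4. Of 8 enteroendocrine markers 5 were higher and 2 lower with BMP2 and 3 and 2 with BMP4, with sums of 6918 to 9894, 9349 to 22387 and 5774 to 12897. The part of these cell types in the values of the 9 products was not tested.

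The genes whose levels followed each product most closely over the 20 samples of the BMP table were found by the root-mean-square difference of log2(value + 1) after centring on the controls, as a description. Defa17 was nearest to Defa43 (0.217) and Nit2 (0.26), and Mptx2 to Nit2 (0.326) and Defa43 (0.33), whereas Ang4 was nearest to Defa26 (0.277) and Clps (0.354). Lyz1 and Itln1 had the same nearest genes, Epb41l4aos (0.143 and 0.176) and the ribosomal protein gene Rps27a (0.194 and 0.193). Defa24 was nearest to Rpl9 (0.148) and Rps24 (0.157) and Defa30 to Rps14 (0.214) and Rpl19 (0.216), all ribosomal protein genes. Mmp7 was nearest to Abi3 (0.324) and Bdh1 (0.349), and Habp2 to Slc25a4 (0.365) and Cbfa2t3 (0.373). The points share their libraries and scaling, and genes that change little are near each other by this measure.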

How the data were processed

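Libraries were made with an mRNA kit and sequenced as 75-base single-end reads, and the submitters' processing notes name Trim Galore, Salmon and DESeq2 with the build GRCm39, without their roles. The labels speak of more than a single sequencing run and assign no sample to a run, so a run could not be entered. In the BMP table the deposited values are a signal: each sample's gene counts over its own size factor, as read from the values: of 180721 values of at most 20 reads, 100% were whole multiples of 1 step within 0.1 reads. The deposited values of the TGFb table are TPM, since each column summed to 1000000.

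Groups came from the labels, and 26 of the 28 samples were used; 2 mesenchymal samples were not used here. The test was limma 3.58.1 (R 4.3.3) on log2(value + 1) with an intensity trend, over genes with a mean of at least 10 (14746 and 7880), all 6 groups of the BMP table in 1 fit, two-sided, with Benjamini-Hochberg adjustment over all genes of a comparison and a threshold of 0.05. Fold changes are those of value + 1, which understates low genes. edgeR 4.0.16 and DESeq2 1.42.0 were run on the recovered reads as alternatives. The design foresaw edgeR for raw counts, and neither table held them. The scripts were tested on simulated data. Copies were compared in GENCODE M21 transcripts with windows of 75 bases.

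Replicate numbers come from the sample titles. Deviations from the group means correlated between same-numbered samples at 0.281 to 0.553 for BMP3, 0.19 to 0.225 for BMP4, 0.158 to 0.262 for BMP5 and 0.236 to 0.294 for BMP7, all over 0.1, which was taken as pairing. For BMP2 and Tgfb a number fell under 0.1. The members and gene lists were chosen with earlier results of these data known. All 9 members are named. Other genes were named by rule: the 3 other Defa rows of highest mean in each table, up to 4 genes of smallest p from each list, and the 2 genes most like each member. Defa3, Defa32, Defa33, Defa21 and Defa22 were chosen after their values were seen. So were Atoh1, Spdef and Nod2, and the Tgfb values of Gfi1 and Bhlha15.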

Additional observations from a re-analysis of the deposited data

How the results depend on the processing

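Over 857 recalculations of the changes of single products, 785 kept direction and side of the threshold, 51 newly passed it, 7 no longer passed and 14 changed sign. For BMP4 the number of products called, 1, became 2 with a pseudocount of 10 or a mean filter of 50, 7 with the same total, 8 after quantile normalization and 5 with the replicate block, and ran from 1 to 3 when samples were left out in turn. Of all genes, 4618 of 14746 were lower with the pseudocount of 10 and 4020 of 11856 with the filter of 50. All genes were not counted with samples left out. For BMP5 it was 0 and became 1 with the replicate block, 2 in a fit of these groups alone and 1 by DESeq2. Over all genes, the fit of these groups alone called 2239 of 14587 higher and 1676 lower, and DESeq2 called 4650 of 14746. For BMP7 the number called was 0 and became 1 with the same total, 1 after quantile normalization, 4 with the replicate block, 7 in a fit of these groups alone and 1 by DESeq2. Of all genes, 2731 of 14763 were lower with the same total and 2938 of 14746 after quantile normalization, and DESeq2 called 5503. For Tgfb 5 became 8 with the replicate block, although its numbers did not pair the samples: correlations were -0.019 to 0.141, and replicate III alone correlated best with its own number. With that block 2644 of all 7880 genes were higher with Tgfb and 2770 were lower. The BMP2 count stayed at 8 with the block, where the number III correlated at 0.018 and 3 of 4 samples correlated best with their own, and ran from 7 to 8 when samples were left out. In the blocked BMP2 fit 6047 of 14746 genes were lower and 5811 higher. Ligand pairs that differed went from 30 to 47 after quantile normalization, and how many of all genes differed under that rule was not counted. The cause of these shifts was not tested.

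Sign changes were all of values that did not pass the test. Leaving out samples in turn, Ang4 with Tgfb ran from -0.090 to 0.134, Defa30 with BMP2 from -0.345 to 0.021, and, with BMP4, Defa24 from -0.470 to 0.057, Defa30 from -0.169 to 0.141, Mmp7 from -0.314 to 0.080 and Mptx2 from -0.210 to 0.237. By DESeq2, Defa30 with BMP4 was 0.001 and Mptx2 0.021. The angiogenin sum with BMP5 was -0.013 with the replicate block, and with Tgfb it was 0.071 after quantile normalization and ran from -0.136 to 0.081 with samples left out. The lowest value of a member in the BMP table was 65.9 normalized counts, and depth is unknown in the TGFb table.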
